A study of Arabidopsis thaliana with 3 samples.

Results

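IAA20, IAA30 and IAA33 encode Aux/IAA proteins that lack the usual degron, and they were followed here on 3 microarrays of the quiescent center (QC) of the Arabidopsis root. They were found as the probe sets whose annotation names 1 of these genes. Each of the 3 genes had 1 probe set, out of 13355 genes measured. The other genes whose symbol is IAA and a number gave 4 measured genes for comparison, namely IAA18, IAA29, IAA31 and IAA34. In the RefSeq annotation IAA20 (AT2G46990), IAA30 (AT3G62100) and IAA33 (AT5G57420) overlap no other gene, whereas IAA34 overlaps AT1G15060, so the signal of IAA34 is less certain. The 3 genes were chosen with their high signals on these arrays already known, so their levels are described and not tested. The annotation in use names only part of the Aux/IAA family, and the other members were not analysed here.

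All samples belonged to 1 group. They were protoplasts sorted by FACS for GFP from roots of WOX5:GFP plants in the Col-0 background, 5 days after stratification. WOX5:GFP carries GFP under the promoter of WOX5, a homeobox gene active in the QC, so the group holds the cells that this promoter and the sort select. Each of the 3 samples was hybridised to 1 ATH1 array after amplification of its RNA, and no array of another cell type was used here. The labels leave unsaid whether the samples came from separate plantings, so the p-values cover just the variation among these 3 samples, part or all of which may be technical. In sorted material, fewer cells of a type and less RNA per cell cannot be told apart.

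Aux/IAA proteins are repressors of the auxin response. They bind auxin response factors (ARFs), which sit on the promoters of auxin-responsive genes. The usual Aux/IAA proteins also recruit co-repressors of the TOPLESS family, and whether IAA20, IAA30 and IAA33 do so was not examined here. Auxin joins the usual Aux/IAA proteins to receptors of the TIR1/AFB family through a short stretch called the degron, and the repressor is then marked with ubiquitin and broken down. IAA20, IAA30 and IAA33 lack this stretch, and such proteins are long-lived in the presence of auxin. IAA20 and IAA30 are a closely related pair, known as targets of the auxin response factor MONOPTEROS in the young vascular cylinder. IAA33 is known to act in the distal stem cells of the root tip, where it competes with a degron-bearing relative for auxin response factors. Of the genes used for comparison, IAA18 carries the usual degron, IAA31 carries an altered one, and IAA34 is also counted among the proteins without it, a feature it thus shares with the 3 genes.

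IAA20, IAA30 and IAA33 gave signals far over the background of every array, whereas the 4 other measured IAA genes stayed near or under it. Values are MAS5 signals, a linear intensity for each probe set that MAS5 computes from matched and mismatched probes. IAA20 had signals of 595, 704 and 634 on replicates 1, 2 and 3. Its mean was 644 ± 55.2 (SD, n = 3), and its highest array stood 1.18-fold over its lowest. IAA33 had signals of 608, 797 and 549 on the same arrays, with a mean of 651 ± 130 (SD, n = 3). Replicate 2 was the highest array for both of these genes, and the lowest differed between them. IAA30 had signals of 631, 906 and 1304, with a mean of 947 ± 339 (SD, n = 3). For IAA30 replicate 3 was the highest array and replicate 1 the lowest. On replicate 1 the signals of the 3 genes lay between 595 and 631, and on replicate 3 they lay between 549 and 1304. Probes differ in how well they bind their targets, so these signals do not order the 3 genes by transcript abundance.

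**Figure D1:**
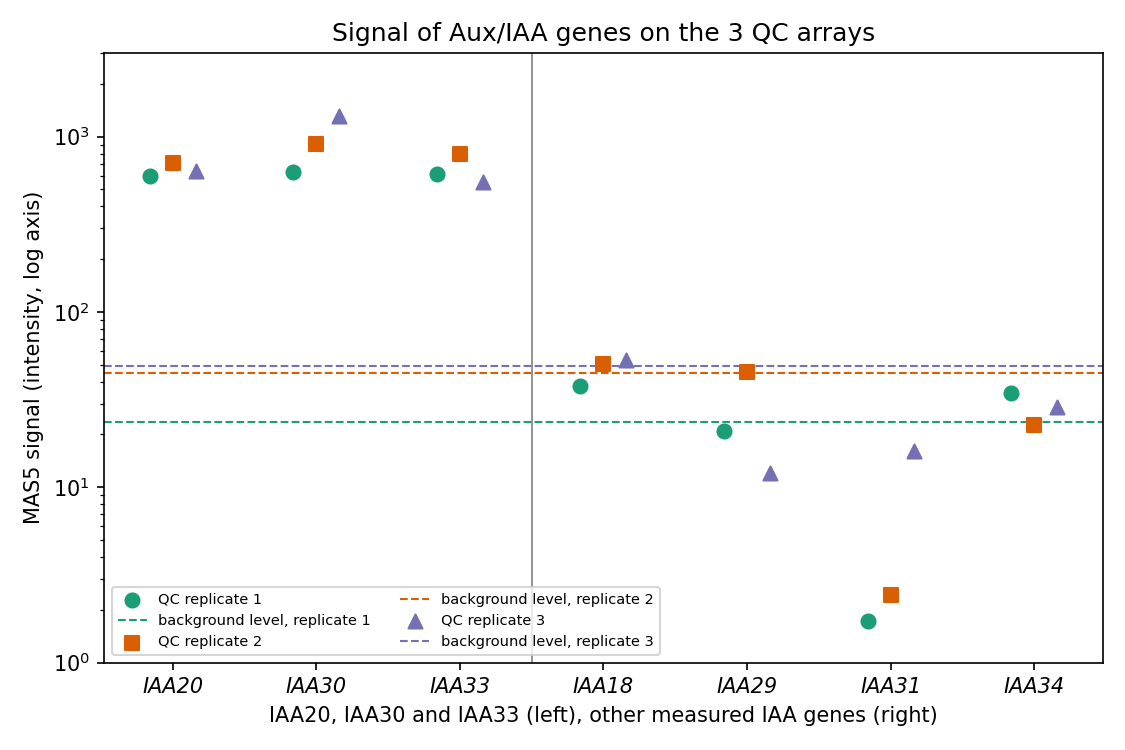
MAS5 signal (vertical log axis) of IAA20, IAA30 and IAA33 on the left and of the 4 other measured IAA genes on the right, 1 point for each of the 3 QC arrays, with the background level of each array as a dashed line. All 9 points of IAA20, IAA30 and IAA33 lie between 549 and 1304, and the 12 points of the other genes lie between 1.73 and 53.3.

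The signals were then set against a background taken from the same array. Its level was the 90th percentile of the log2 signals of 6 measured genes of unrelated organs (ANX1, ANX2, MGH3, A9, AMS and CLV3). This gave log2 levels of 4.56, 5.49 and 5.61, or signals of 23.6, 44.9 and 49.0. With 6 genes, the level lay midway on the log2 scale between the highest and the second highest of them. The tapetum gene AMS was the highest on all 3 arrays, with signals of 48.4, 59.7 and 99.4. The second highest was A9 on replicates 1 and 2 (11.5 and 33.7) and CLV3 on replicate 3 (24.1). IAA20 lay 4.66, 3.97 and 3.69 log2 over the level of its array, a mean of 4.11 ± 0.50 (SD, n = 3). IAA33 lay 4.69, 4.15 and 3.49 log2 over it, a mean of 4.11 ± 0.60 (SD, n = 3). Both were thus highest over background on replicate 1, where the level itself was lowest. IAA30 lay 4.74, 4.34 and 4.74 log2 over background, a mean of 4.60 ± 0.23 (SD, n = 3). For comparison, 45.3% of the 13349 genes tested were called above background (limma, adjusted p under 0.05), so a gene above the level is common on these arrays, and since the 3 genes were chosen by this contrast, nothing is read from their place in it. Without AMS in the panel, IAA20, IAA30 and IAA33 lay 5.06, 5.56 and 5.06 log2 over background.

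On each array the share of tested genes with a lower signal was also taken. For IAA20 it was 89.3%, 91.4% and 90.1% on replicates 1, 2 and 3. For IAA33 it was 89.6%, 92.5% and 88.5%. For IAA30 it was 90.04%, 93.4% and 95.9%. IAA20 thus kept about the same place on all arrays. IAA33 stood highest on replicate 2 and lowest on replicate 3, and IAA30 stood higher on replicate 3 than on replicate 1. These shares place a probe set on its array and, for the reason given above, not a transcript among others.

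The 4 other IAA genes lay near or under the background level. IAA18, whose gain-of-function alleles alter embryo and lateral root development, had signals of 38.0, 50.2 and 53.3. It lay 0.32 ± 0.32 log2 over background (SD, n = 3) and was not called (limma, adjusted p = 0.608). IAA34, which is linked to auxin signalling through a transmembrane kinase in the apical hook, had signals of 34.3, 22.8 and 28.8. It lay at -0.40 ± 0.82 log2 (SD, n = 3) and was not called (limma, adjusted p = 0.594). IAA29, a gene known for its rise under shade, had signals of 20.8, 45.4 and 12.1 and was not called at -0.73 ± 1.12 log2 (SD, n = 3, limma, adjusted p = 0.357). IAA31, the family member with an altered degron, had signals of 1.73, 2.42 and 16.1. It lay below background at -3.20 ± 1.40 log2 (SD, n = 3, limma, adjusted p = 0.00352), a call that ended without AMS in the panel (limma, adjusted p = 0.0534).

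Counted together, 0 of the 4 other IAA genes lay above background and 1 lay below it (limma, adjusted p under 0.05), against 45.3% of all genes above and 25.6% below. The count of genes with an unadjusted limma p under 0.05 was the same, IAA31 alone. The signals of IAA20, IAA30 and IAA33 did not overlap with those of the 4 others on any array. IAA20, IAA30 and IAA33 were chosen with their high signals known, so nothing is read from this gap. A signal above those of all 4 was also common. IAA18, the highest of the 4 on every array, had a signal over just 43.5%, 45.7% and 47.8% of tested genes, in replicate order. With 4 genes and no other cell type, the counts do not show what the rest of the Aux/IAA family did. A gene under the background level is not shown to be absent.

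The spread between arrays is a measure that did not enter the choice of the 3 genes. It was taken on log2 signal with no background subtracted. IAA20 was the steadiest, with a range between arrays of 0.24 log2 and an SD of 0.12. IAA33 had a range of 0.54 log2 and an SD of 0.28. IAA30 had a range of 1.05 log2 and an SD of 0.52, so that its signal on replicate 3 was 2.07-fold that on replicate 1. The median range over the 6050 genes above background was 0.44 log2. The range of IAA20 was wider than that of 20.4% of these genes, that of IAA33 wider than 63.3%, and that of IAA30 wider than 94.4%.

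**Figure D2:**
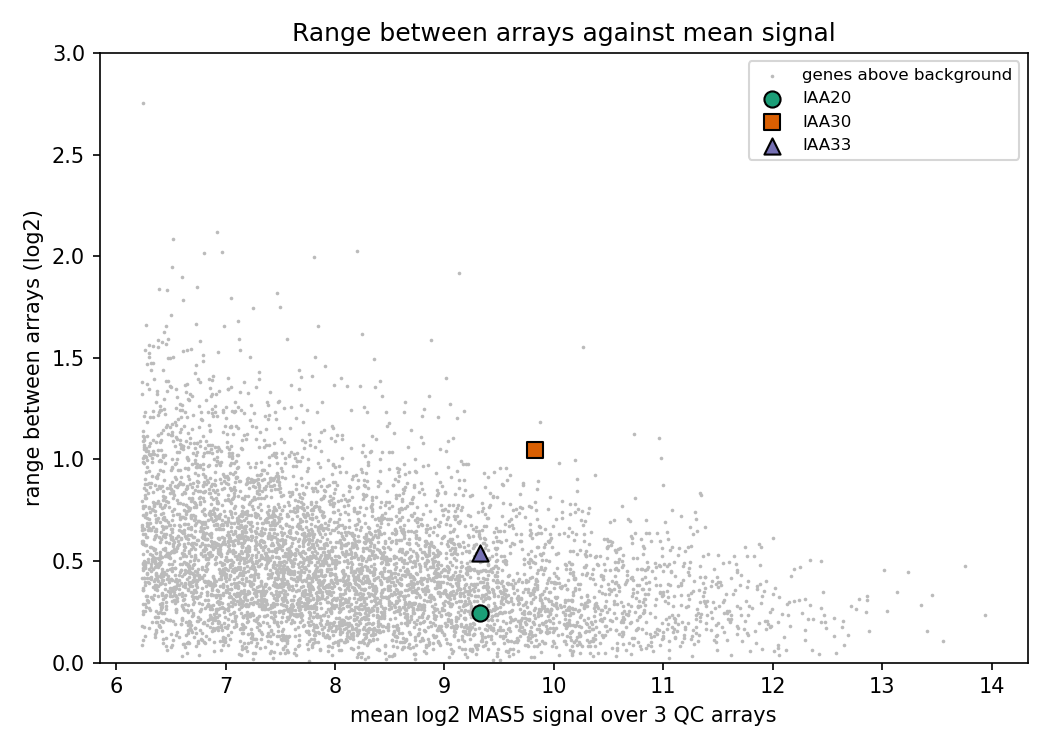
Range between the 3 QC arrays (log2, vertical axis) against mean log2 MAS5 signal (horizontal axis), with a grey point for each of the 6050 genes above background and large symbols for IAA20, IAA30 and IAA33. IAA30 stands at a range of 1.05 log2, above most genes of its signal, while IAA20 lies at 0.24 and IAA33 at 0.54.

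Range depends on signal, and for this reason each gene was also set beside the 1000 genes nearest to it in mean signal. Among those the range of IAA30 was wider than 99.7%, with a median range of 0.33 log2. The range of IAA20 was wider than 27.1% of its neighbours and that of IAA33 wider than 75.4%, with a median of 0.37 log2 in both cases. Of the other IAA genes, IAA18 (0.49 log2), IAA34 (0.59) and IAA29 (1.91) had ranges wider than 22.1%, 18.4% and 76.2% of genes near them in signal. IAA31 had a range of 3.22 log2 at a very low signal, where the median range of such genes was 3.66 log2. The background level differed between arrays in the same direction as IAA30, being lowest on replicate 1 and highest on replicate 3, and the SD of IAA30 over background (0.23) is therefore narrower than the SD of its signal (0.52).

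The related genes IAA20 and IAA30 did not follow each other from array to array. IAA30 was 1.44-fold higher on replicate 2 than on replicate 1 and 1.44-fold higher on replicate 3 than on replicate 2. IAA20 was 1.18-fold higher on replicate 2 than on replicate 1, and its ratio of replicate 3 to replicate 2 was 0.90. IAA33 had ratios of 1.31 and 0.69 for the same pairs. Expressed as the root mean square difference of deviations from each gene's own mean, IAA20 and IAA33 differed by 0.16 log2, IAA20 and IAA30 by 0.40, and IAA30 and IAA33 by 0.54. The deviations are not scaled, so these differences also reflect the wide range of IAA30. Of the protein-coding genes next to the 3 on their chromosomes, AT3G62110 beside IAA30 and AT5G57410 beside IAA33 were measured. AT3G62110 had signals of 183, 179 and 208 and AT5G57410 had signals of 480, 634 and 675. Both lay above background (limma, adjusted p under 0.05), as did 45.3% of all genes tested, so little is read from this.

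By the same measure the genes with the most similar profile over the 3 arrays were looked up among the other genes above background. Nearest to IAA20 was GTR1, a transporter of glucosinolates, with signals of 2357, 2795 and 2515 and a root mean square difference of 0.0013 log2. AT5G43720 (0.0022) and AT1G54410 (0.0065), which encodes a dehydrin, came next. Nearest to IAA33 were AT5G57910, AT5G67290 and AT3G43230, at 0.0053, 0.0060 and 0.0088 log2. Nearest to IAA30 were AT1G68660, AT1G21770 and AT3G55070, at 0.0089, 0.012 and 0.024 log2. AT1G68660 had signals of 91.0, 131 and 186. With 3 arrays such likeness is easily met. Under a difference of 0.1 log2 there were 895 genes for IAA20 and 342 for IAA33 among 6047, but 67 for IAA30. A gene with a wide range, such as IAA30, has fewer genes this near by an unscaled measure.

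Genes of auxin synthesis, transport and conjugation were examined next, to see the same arrays through other parts of the auxin pathway. Of 103 entries on these lists and those of the receptors, response factors and co-repressors, 10 were measured. Measured here means named by the annotation in use, which names only part of the probe sets. No receptor, response factor or co-repressor was among the 10, and those genes were not analysed here. Of the 10, 5 lay above background, 2 lay below it and 3 lay on neither side by the limma test (adjusted p under 0.05), with a median of 0.83 log2 over background, beside 45.3% of genes above, 25.6% below and a median of 0.62 log2 over all genes tested. The count above is close to the share of all genes.

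The synthesis and conjugation lists held 17 entries each, of which 4 and 5 were measured. Their calls are to be read beside the 45.3% of all genes above background and the 25.6% below. The YUCCA flavin monooxygenases make auxin from indole-3-pyruvate, and 0 of 4 measured lay above background. YUC4 (signals of 0.65, 12.9 and 2.17) and YUC11 (1.55, 2.40 and 15.8) lay below it at -3.82 ± 1.79 and -3.26 ± 1.42 log2 (SD, n = 3, limma, adjusted p = 0.00083 and 0.00305). YUC2 and YUC6 were not called, at -1.10 ± 1.03 and -0.96 ± 1.59 log2 (limma, adjusted p = 0.192 and 0.245). The GH3 enzymes join auxin to amino acids, and 4 of 5 measured lay above background. GH3.17, which joins auxin to glutamate, had signals of 1109, 991 and 1388 and lay at 4.95 ± 0.56 log2 (SD, n = 3, limma, adjusted p = 8.39e-28). GH3.5 had signals of 532, 522 and 527, a range of only 0.03 log2, and lay at 3.82 ± 0.59 log2 (limma, adjusted p = 1.1e-21). GH3.3 and GH3.1 lay above background at 2.40 ± 0.64 and 2.11 ± 0.43 log2 (limma, adjusted p = 3.29e-09 and 4.77e-07). GH3.9 was not called at -0.46 ± 0.63 log2 (limma, adjusted p = 0.541). The difference between the YUCCA and GH3 genes was not tested.

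**Figure D3:**
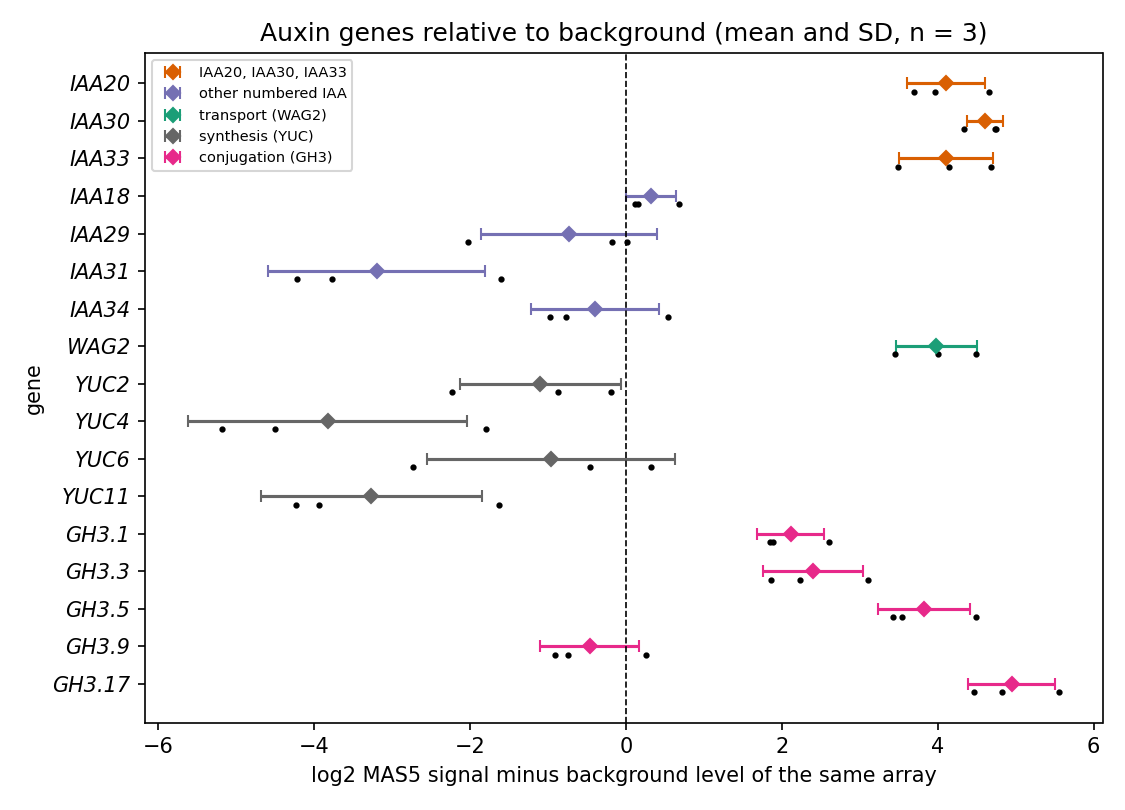
Log2 MAS5 signal minus the background level of the same array (horizontal axis) for IAA20, IAA30 and IAA33, the 4 other IAA genes and 10 genes of auxin transport, synthesis and conjugation, with the mean as a diamond, the SD over 3 arrays as a bar and each array as a black dot. IAA20, IAA30 and IAA33 lie from 3.49 to 4.74 on single arrays, and all dots of IAA31, YUC2, YUC4 and YUC11 lie below 0.

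WAG2, the single measured gene of the transport list, encodes a kinase that phosphorylates PIN auxin efflux carriers. It had signals of 532, 718 and 537 and lay above background at 3.98 ± 0.52 log2 (SD, n = 3, limma, adjusted p = 6.17e-23). Like IAA20 and IAA33 it was highest on replicate 2. BBM and LHW were the 2 measured genes of 18 on a list of regulators in the root tip and vascular cylinder. Both lay above background, as did 45.3% of all genes tested, and both recur among the markers below. BBM, a PLETHORA relative with AP2 domains that promotes embryonic and root meristem fate, had signals of 434, 507 and 595 and lay at 3.77 ± 0.38 log2 (limma, adjusted p = 3.01e-21). LHW, a bHLH protein that acts early in vascular development, had signals of 412, 391 and 586 and lay at 3.61 ± 0.50 log2 (SD, n = 3). As for IAA30, replicate 3 was the highest array for both of them.

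The label of the samples was checked against markers. All 3 measured QC markers of 14 listed lay above background, where 45.3% of all genes tested did, so the count of these few genes says little about the label. They were BBM as given, JKD at 1.57 ± 0.64 log2 and AGL42 at 1.14 ± 0.27 log2 (SD, n = 3, limma, adjusted p = 0.000667 for JKD and 0.0239 for AGL42), and WOX5 was not analysed here. AGL42 was no longer called by limma when replicate 2 or replicate 3 was left out (adjusted p = 0.218 and 0.111), when background was set at the 95th percentile (adjusted p = 0.129) or when no variance trend was fitted (adjusted p = 0.0691). The summed signal of the 3 QC markers was 609, 691 and 824 on replicates 1, 2 and 3. Markers of other root cells gave signal too, in counts to be read against the same 45.3%. Both of the 2 measured xylem and procambium markers of 12 listed (LHW and PHV) lay above background, with summed signals of 509, 490 and 677, as did 1 of 2 columella and root cap markers of 11 listed, with summed signals of 215, 187 and 162. Of the remaining lists, the single phloem and the single endodermis marker and 2 of 4 epidermis markers lay above background, with summed signals of 148 to 168, 389 to 419 and 739 to 812. On replicate 3, where IAA30 was highest, the summed signals of the QC, xylem and procambium, and single phloem markers were highest as well. Those of the columella and root cap and of the epidermis markers were lowest there. Single genes did not all follow these sums. BBM, JKD and LHW were highest on replicate 3, but AGL42 was highest on replicate 2 and PHV was lowest on replicate 3. Of the columella and epidermis markers, ACR4, TRY, EXPA18 and MYC1 were lowest on replicate 3, but CLE40 and EXPA7 were highest there. The endodermis marker was highest on replicate 1. Their part in the signal of IAA30 was not tested.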

How the data were processed

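For each of 22810 probe sets of the ATH1 array the authors deposited a MAS5 signal, which is an intensity on a linear scale, from 3 arrays. RNA was amplified and labelled with biotin before hybridisation. For MAS5, neither version nor settings nor detection calls were given in the sources used. The mean after trimming 2% of values at each end was 250 on every array, so a change in total RNA cannot be seen, and median signals were 76.9, 81.4 and 81.3. Signals do not give a depth, and the number of arrays limits the precision. Any pair of arrays had 0 identical values.

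Log2 values were taken without an offset. The platform annotation names 1 gene for 13513 probe sets, of which 13436 matched RefSeq (TAIR10.1), and several for 503. RefSeq was used for the names, positions and types of genes. Probe sets of a gene were averaged. Each gene's log2 signal minus the background level of its array was tested against 0 in limma 3.58.1 under R 4.3.3 (two-sided test of the intercept, eBayes with a variance trend, adjustment by Benjamini-Hochberg, threshold 0.05). Of 54 panel genes 6 were measured and kept out of the tests. The level's own error is shared by all genes, so very small p-values say only that a gene lay far from it. The test was tried on simulated data first.

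The genes and lists were chosen with earlier results of these data known. IAA33 is also among the marker genes that the study picked from profiles including the QC. Named genes were all measured Aux/IAA, auxin pathway, regulator and QC marker genes and the 3 genes nearest in profile to IAA20, IAA30 and IAA33. The alternatives were the 75th and 95th percentiles of the panel, pseudogenes as background, quantile normalization, an offset of 16, only probe sets without _s or _x in their ID, no variance trend and leaving out each replicate. After the data had been seen, a panel without AMS, 1 common level for all arrays and a rise of the level by 1 log2 were added.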

Additional observations from a re-analysis of the deposited data

How the results depend on the processing

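No paired analysis was possible because all samples belong to 1 group. The levels of IAA20, IAA30 and IAA33 over background moved with the choice of that background, and stayed above it in every alternative. The 3 genes were chosen with their high signals known, so nothing is read from their staying above it. Their levels were 5.01, 5.51 and 5.01 log2 with the panel's 75th percentile and 5.06, 5.56 and 5.06 without AMS. With the level raised by 1 log2, which lowers each value by as much, they were 3.11, 3.605 and 3.11. With an offset of 16, IAA20 lay at 3.56 and IAA30 at 4.04, and IAA30 lay at 4.19 with the 95th percentile and at 5.02 with pseudogenes as background. Leaving out 1 replicate gave 3.83 to 4.31 for IAA20, 4.54 to 4.74 for IAA30 and 3.82 to 4.42 for IAA33. The range between arrays rests on single arrays, and leaving out 1 gave 0.092 to 0.24 log2 for IAA20 and 0.15 to 0.54 for IAA33. For IAA30 it gave 0.52 to 1.05 log2, with 0.53 without replicate 1 and 0.52 without replicate 3. With quantile normalization the range of IAA30 was 1.07 log2.

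The count of other IAA genes above background was 0 in every alternative, and that below was 1 except without AMS (0) and at the raised level (3, with IAA29 and IAA34 added). It was 1 whichever replicate was left out. Auxin pathway genes above background numbered 5 in every alternative, and those below numbered 2 except with an offset of 16 (3) and at the raised level (5). All genes above background ranged from 4602 to 6930, and those below were 1637 at the 75th percentile, 1560 without AMS, 5217 at the raised level and 2226 to 2623 leaving out 1 replicate.

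Genes close to the level changed side without passing the test. IAA18 lay at -0.087 with the 95th percentile and -0.68 at the raised level. IAA29 lay at 0.18 with the 75th percentile and 0.23 without AMS. IAA34 lay at 0.50, 0.011 and 0.55 with the 75th percentile, with pseudogenes and without AMS. GH3.9 lay at 0.44 with the 75th percentile and 0.49 without AMS. The call of JKD ended at the raised level (limma, adjusted p = 0.226), as did that of AGL42 (limma, adjusted p = 0.801).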
